A study of Mus musculus with 6 samples.

Results

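Where Gli3 and Hand2 were bound around 8 forkhead genes of the embryonic mouse face was read from ChIP-seq peak lists. The genes are *Foxf1*, *Foxf2*, *Foxc1*, *Foxc2*, *Foxd1*, *Foxd2*, *Foxl1* and *Foxq1*, 8 of the 21938 protein-coding genes of the annotation outside the mitochondrial genome. They were chosen as forkhead genes known to respond to Hedgehog, and earlier results of these data were known when they were chosen. The files hold no expression, so the response to Hedgehog could not be examined here. For each gene, every peak whose midpoint lay within 100 kb of the gene body was taken. Peaks near several of the genes were counted once, which gave 13 of the 5427 Gli3 peaks of the mandibular prominence (MNP), 18 of the 5752 Gli3 peaks of the whole face and 67 of the 59583 Hand2 peaks of the MNP.

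The study performed ChIP with the anti-FLAG M2 antibody on CD1 embryos that carry a FLAG tag in the endogenous gene. The genotype is given as Gli3 3XFlagbio or Hand2 3XFlagbio, while the methods of the study name the Hand2 allele 3xFlag. The 6 samples form 3 groups of 2 replicates: Gli3 MNP samples, Gli3 whole face samples, whose tissue includes the MNP, and MNP samples with tagged Hand2. Each replicate was tissue pooled from several embryos, fixed for 20 minutes in 1% formaldehyde; the labels give embryonic day 11.5 and the text of the series E10.5. Both replicates are merged in each list, without heights, p-values or reads, so the depth behind a peak is unknown, no value carries an error between embryos, and the comparisons below are counts set beside the same counts elsewhere in the genome, without a test.

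Forkhead proteins are transcription factors (TFs) that bind DNA through a winged helix, and several of them act in the mesenchyme that lies beneath a Hedgehog-secreting epithelium. Hedgehog signaling ends at the Gli TFs, of which Gli3 serves largely as a repressor where the signal is low. All Gli proteins recognize GACCACCC, the canonical Gli-binding motif (cGBM). Hand2 is a basic helix-loop-helix TF of the distal jaw that binds E-boxes (CANNTG), in particular CAGATG.

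The 8 genes fall into 4 loci of the mm10 (GRCm38) genome. On chromosome 8, *Foxf1* (121084386-121088144), *Foxc2* (121116171-121118895) and *Foxl1* (121127940-121130644) lie side by side on the plus strand. *Foxf1* is a regulator of gut, lung and vessel mesenchyme, *Foxc2* acts in mesenchyme of the palate, skeleton and lymphatic vessels, and *Foxl1* marks mesenchyme under the gut epithelium. On chromosome 13, *Foxq1* (31556134-31560976), known for its role in hair structure, *Foxf2* (31625816-31631403), which is required for the palate, and *Foxc1* (31806633-31812476), which acts in the anterior eye and the skull, form a second row on the plus strand. *Foxd1* (98354242-98359305, plus strand), a gene of kidney stroma and facial mesenchyme, lies elsewhere on chromosome 13. *Foxd2* (114906282-114908873, minus strand), its close relative, lies on chromosome 4.

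Of these 4 loci, 2 held the cGBM under Gli3 peaks, at 4 positions in all. Each of the 4 lay in a peak of both Gli3 lists. The sequences are shown because they are the matches to the Gli motif around these genes that Gli3 peaks cover. They are read 5′ to 3′ on the strand that carries GACCACCC, with 60 bases on either side, and capitals mark GACCACCC and any E-box.

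*Foxd2*, 86.8 kb downstream of the TSS (chr4:114821966-114822093, plus strand): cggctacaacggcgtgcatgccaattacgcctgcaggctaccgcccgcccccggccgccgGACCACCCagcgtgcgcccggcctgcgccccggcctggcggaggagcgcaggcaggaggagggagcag

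*Foxd2*, 5.6 kb downstream of the TSS (chr4:114903212-114903339, minus strand): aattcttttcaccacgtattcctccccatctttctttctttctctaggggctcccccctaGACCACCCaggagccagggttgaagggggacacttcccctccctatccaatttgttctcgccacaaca

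*Foxf1*, 3.6 kb upstream of the TSS (chr8:121080772-121080899, minus strand): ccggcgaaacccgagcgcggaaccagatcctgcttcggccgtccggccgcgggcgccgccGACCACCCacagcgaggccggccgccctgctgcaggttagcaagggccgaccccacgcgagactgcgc

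*Foxl1*, 95.1 kb downstream of the TSS (chr8:121222955-121223082, minus strand): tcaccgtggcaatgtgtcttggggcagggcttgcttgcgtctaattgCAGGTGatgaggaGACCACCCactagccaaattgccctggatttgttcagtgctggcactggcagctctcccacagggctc

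One more cGBM, in a Hand2 peak without Gli3, lies 97.2 kb downstream of the *Foxl1* TSS (chr8:121225053-121225180, plus strand): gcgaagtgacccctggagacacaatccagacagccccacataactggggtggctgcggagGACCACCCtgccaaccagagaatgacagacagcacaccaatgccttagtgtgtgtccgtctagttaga

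Across the 4 loci, which span 1110258 bases, GACCACCC occurred 35 times on either strand, and Gli3 peaks covered 4 of these. In all 4 of the covered copies the base after the motif was A, while A followed 9 of the 31 copies outside Gli3 peaks. Over the whole lists A followed 467 of 777 copies in Gli3 MNP peaks (60.1%), 886 of 1180 in Gli3 whole face peaks (75.1%) and 354 of 898 in Hand2 peaks (39.4%). This base was examined after the sequences were seen. The exact 8-base form of the divergent motif (dGBM), GACCTCCC, occurred 30 times in the loci and in no peak of any list. The study counted a dGBM from its core CCTCC, a shorter and more frequent match, and a cGBM by similarity to a matrix, so the exact motifs searched here are stricter than both.

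Positions of all peaks in the 4 loci are drawn in the map of the loci, with the *Foxf2* TSS as the zero of the locus that also holds *Foxq1* and *Foxc1*.

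**Figure D1:**
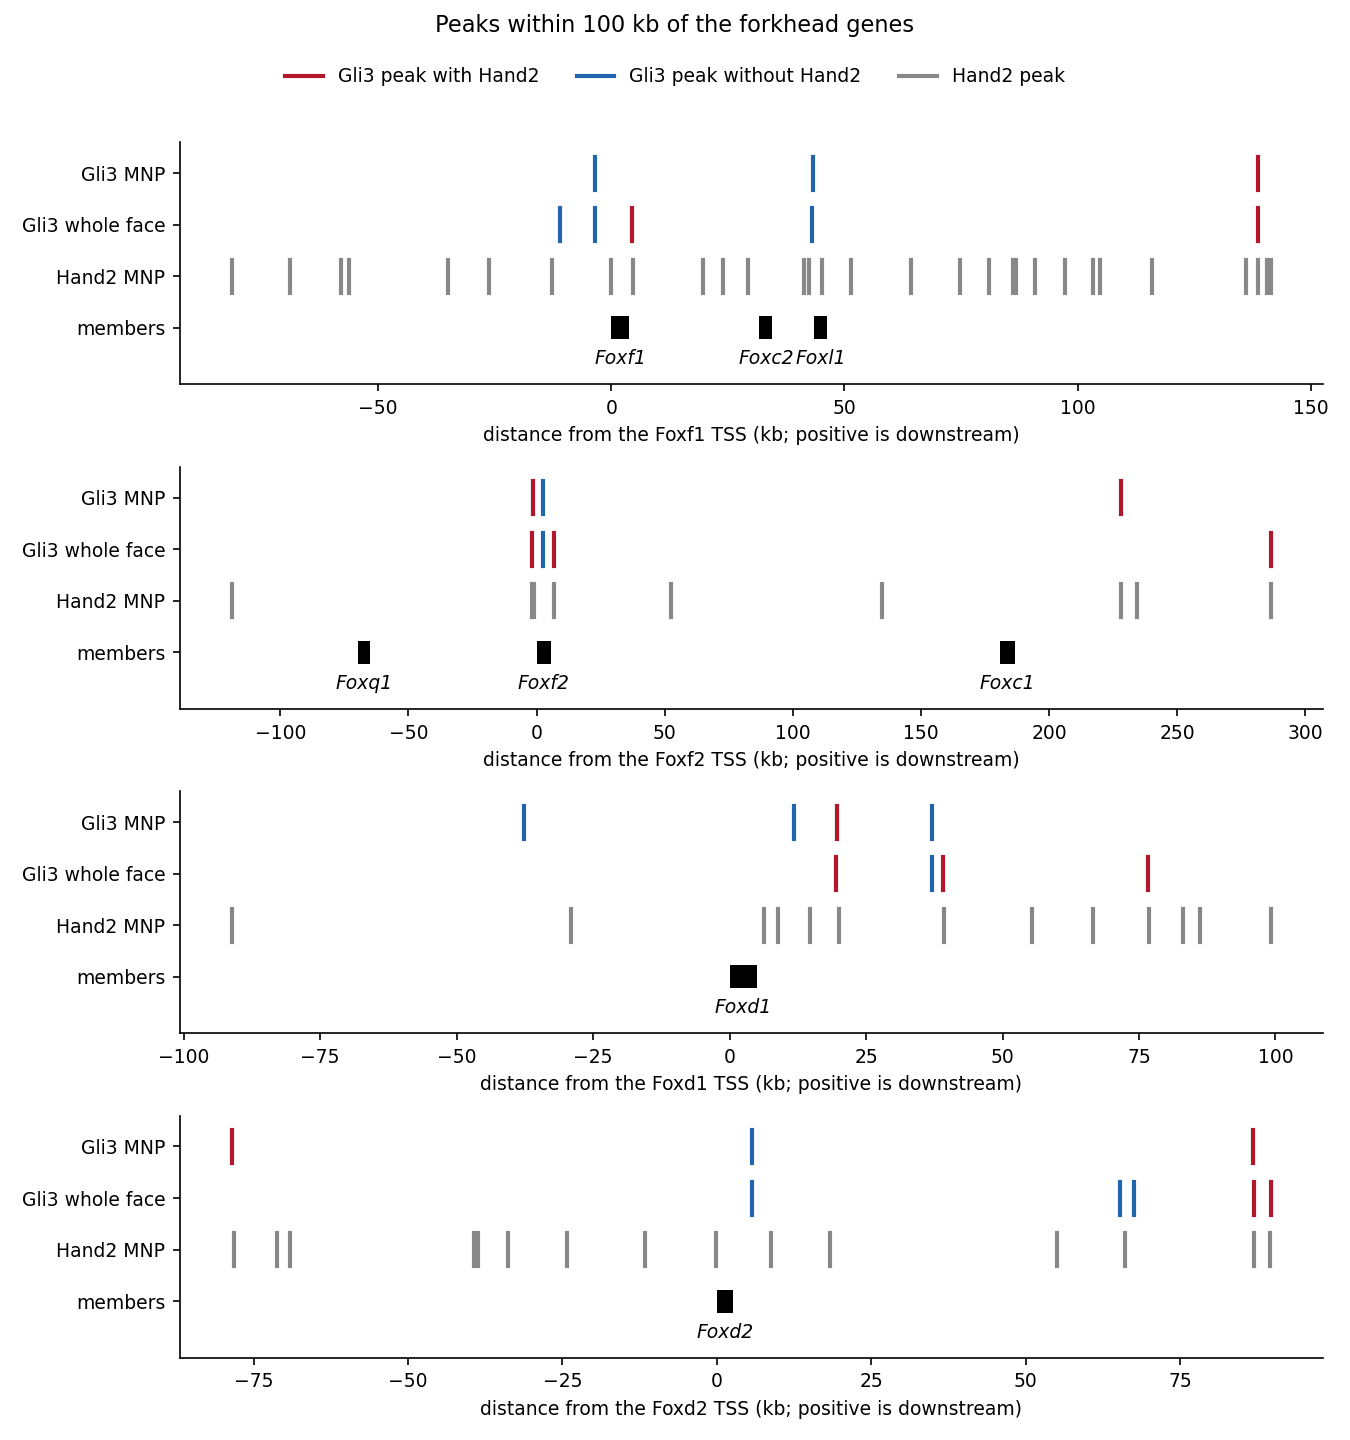
Peaks around the forkhead genes, 1 panel per locus. The x axis is the distance in kb from the TSS named under each panel, in the direction of that gene; each vertical line is the midpoint of a peak of the Gli3 MNP, Gli3 whole face or Hand2 MNP list, red where a Gli3 peak shares at least 1 base with a Hand2 peak and blue where it does not, and black boxes are the gene bodies. The 30 Hand2 peaks of the *Foxf1* locus spread over the whole window, while the 3 Gli3 MNP and 5 Gli3 whole face peaks there stand at few positions.

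All 8 genes had at least 1 peak of each list within 100 kb. Over all protein-coding genes, 56.1% had a Gli3 MNP peak, 46.1% a Gli3 whole face peak, 89.0% a Hand2 peak and 36.4% a peak of every list within that distance. Because genes of a locus share peaks, the 8 genes are not 8 separate observations. The gene bodies of all 8 are shorter than 10 kb, and among the 7774 protein-coding genes of that size the median number of peaks was 0 for both Gli3 lists and 4 for Hand2.

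Gli3 was bound in the MNP at 4 sites near *Foxd1*, at 3 each near *Foxl1* and *Foxd2*, at 2 each near *Foxf1*, *Foxc2*, *Foxq1* and *Foxf2*, and at 1 near *Foxc1*. Of all protein-coding genes, 5.74% had as many Gli3 MNP peaks as *Foxd1* or more, 13.1% as many as *Foxl1* and *Foxd2*, 28.8% as many as the genes with 2 peaks, and 56.1% as many as *Foxc1*. By this count and window, *Foxd1* lay above the 90th percentile of genes, which is 3 peaks, and the other 7 did not. The rank counts peaks that are closer to other genes. Of the 4 *Foxd1* peaks, 3 were closest to the TSS of *Foxd1* and 1 to that of *Btf3*. Of the 3 *Foxd2* peaks, 1 each was closest to *Foxd2*, *Gm12830* and *Cmpk1*. By peaks per 100 kb of window 3 of the 8 genes, and by peaks within 200 kb 5, were in the top 10%.

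In the whole face the counts were 5 for *Foxl1* and *Foxd2*, 4 for *Foxf1*, *Foxc2* and *Foxd1*, 3 for *Foxq1* and *Foxf2* and 1 for *Foxc1*. As many peaks or more were found for 1.24% of genes at 5 peaks, 3.18% at 4 and 8.44% at 3. The 7 genes other than *Foxc1* lay above the 90th percentile of 2 whole face peaks, and *Foxc1*, at 46.1%, did not. Of the 5 *Foxd2* peaks, 1 was closest to the TSS of *Foxd2* and 4 to that of *Gm12830*. Of the 4 *Foxd1* peaks, 3 were closest to the TSS of *Foxd1*.

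Hand2 peaks separated the loci more than Gli3 peaks did. *Foxl1* had 27 and *Foxf1* and *Foxc2* 24 each, counts that 1.23% and 1.87% of protein-coding genes reached. *Foxd2* had 15 (8.37%) and *Foxd1* 13 (12.8%). *Foxq1*, *Foxf2* and *Foxc1* had 4 each, which 67.6% of genes reached, below the median of 6 over all genes. Per 100 kb of locus, Hand2 peaks numbered 12.2 at *Foxf1*-*Foxc2*-*Foxl1*, 7.40 at *Foxd2*, 6.34 at *Foxd1* and 1.97 at *Foxq1*-*Foxf2*-*Foxc1*. Gli3 MNP peaks numbered 1.95 per 100 kb at *Foxd1*, 1.48 at *Foxd2*, 1.22 at *Foxf1*-*Foxc2*-*Foxl1* and 0.657 at *Foxq1*-*Foxf2*-*Foxc1*, so the locus with the most Hand2 peaks was not the one with the most Gli3 MNP peaks. When ranked only among the genes shorter than 10 kb, a ranking added after the data were seen, *Foxl1* was reached in Hand2 peaks by 0.129% of genes, *Foxf1* and *Foxc2* by 0.360%, *Foxd2* by 3.96%, *Foxd1* by 7.11%, and *Foxq1*, *Foxf2* and *Foxc1* by 54.4%.

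**Figure D2:**
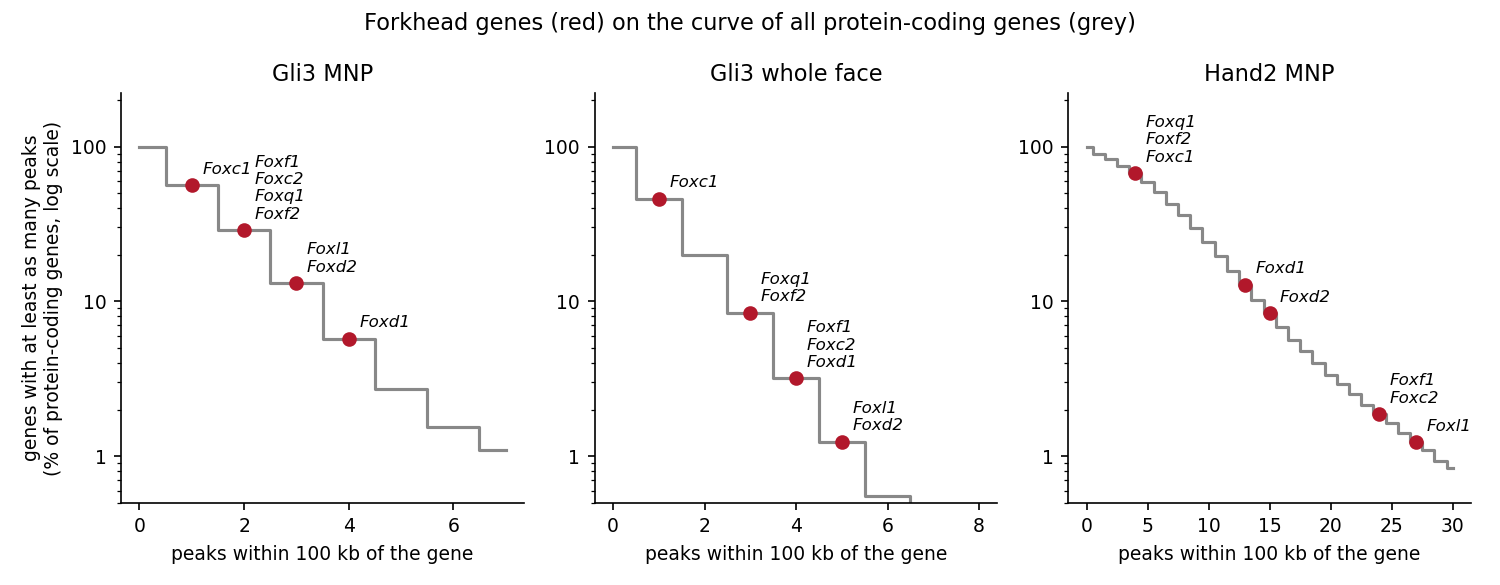
Number of peaks within 100 kb of each forkhead gene, against all protein-coding genes. The x axis is the number of peaks, the y axis (log scale) the percent of the 21938 protein-coding genes with at least that many; the grey line is all genes and red points are the 8 forkhead genes. *Foxc1* sits high on the curve of both Gli3 lists, at 56.1% and 46.1%, and *Foxf1*, *Foxc2* and *Foxl1* sit below 2% on the Hand2 curve.

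Upstream of *Foxf1*, a Gli3 MNP peak (chr8:121080469-121081142) lay 3.6 kb from the TSS, in an intron of *Fendrr*, the long noncoding RNA gene transcribed away from *Foxf1*. A whole face peak of 209 bp (chr8:121080729-121080937) lay within it. Its cGBM stood 2 bp from the midpoint of the whole face peak and 30 bp from the midpoint of the MNP peak. No Hand2 peak touched it; the closest was 2997 bp away from the MNP peak. A second whole face peak in an intron of *Fendrr*, 10.9 kb upstream of *Foxf1* (chr8:121073241-121073672), had no counterpart in the MNP list.

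Hand2 itself had a peak over the *Foxf1* TSS (chr8:121084139-121084486), with no CANNTG in it. Downstream of the gene, 4.5 kb from the TSS, a whole face peak (chr8:121088818-121089028) lay inside a Hand2 peak and was not in the Gli3 MNP list.

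*Foxl1* was the only one of the 8 with a Gli3 peak at its promoter, taken as a midpoint within 1 kb of the TSS. This held in both Gli3 lists, compared to 15.4% of protein-coding genes for Gli3 MNP peaks and 5.37% for Gli3 whole face peaks. The MNP peak of 605 bp covers the TSS, and the whole face peak of 208 bp ends before it. Neither holds GACCACCC, and the closest Hand2 peak was 399 bp from the MNP peak.

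Near the forkhead genes, 10 of 13 Gli3 MNP peaks held GACCACCC with at most 1 mismatch, compared to 67% of all other Gli3 MNP peaks, and 12 of 18 whole face peaks did, compared to 66.4% of the others, so copies of this kind are common at these widths.

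Another region with Gli3 at the *Foxf1* locus lay 95.1 kb downstream of *Foxl1* (chr8:121222859-121223240) and was in all 3 lists. It is the printed sequence in which an E-box, CAGGTG, stands 7 bp from the cGBM; the closest CAGATG was 152 bp away. *Foxl1* alone of the 3 genes has this region within 100 kb, which is why its count is 1 higher in both Gli3 lists. Between *Foxf1* and *Foxc2*, 2 Hand2 peaks lay closest to *Mthfsd*. *Foxc2* had a Hand2 peak 2.6 kb upstream of its TSS (chr8:121113279-121113956), and the Gli3 MNP peak closest to the *Foxc2* TSS was the one at the *Foxl1* promoter, 11566 bp away.

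Near *Foxf2*, Gli3 peaks flanked the TSS. The upstream peak of the MNP list (chr13:31623870-31624642) lay 1.6 kb from the TSS in an intron of the noncoding gene 1700018A04Rik and shared 642 bp with a Hand2 peak. The whole face peak within it (chr13:31623922-31624130) is shown because this is the region in all 3 lists closest to a TSS of the 8 genes. It holds neither GACCACCC nor GACCTCCC and no E-box, and it holds the core CCTCC. Capitals mark the one copy, on the minus strand, with a single difference (C3G, counted from the 5′ end of GACCACCC) from that motif.

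*Foxf2*, 1.8 kb upstream of the TSS (chr13:31623922-31624130, plus strand): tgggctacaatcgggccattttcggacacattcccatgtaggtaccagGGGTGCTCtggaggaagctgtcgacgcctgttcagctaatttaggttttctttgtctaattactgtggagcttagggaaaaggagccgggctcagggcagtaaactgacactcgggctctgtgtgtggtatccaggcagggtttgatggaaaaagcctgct

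The second *Foxf2* peak of both Gli3 lists lay in the intron of the gene, 2.6 kb from the TSS (chr13:31628290-31628563 in the MNP), 3139 bp from the closest Hand2 peak. A whole face peak 6.7 kb downstream of the TSS (chr13:31632418-31632628) lay inside a Hand2 peak. *Foxq1* had no Gli3 peak of its own: its 2 Gli3 MNP and 3 Gli3 whole face peaks are those of *Foxf2*, at least 67892 bp away, and 1 Hand2 peak stood 49.2 kb upstream of its TSS.

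*Foxc1* differed from the other genes in that its MNP and whole face peaks were at different places. The MNP peak (chr13:31853441-31854166, 47.2 kb downstream) lay within a Hand2 peak of 1050 bp, and the whole face peak (chr13:31912238-31912449, 105.7 kb downstream of the TSS) within another. Both are in introns of *Gmds*, which encodes an enzyme of GDP-fucose synthesis. The whole face peak was the one just inside the limit of the window, with its midpoint 99867 bp from the gene body, and the next Gli3 whole face peak outside the window was at 114440 bp, near *Foxd2*. For Gli3 MNP peaks the limit fell between 92405 and 114381 bp.

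*Foxd1* had 4 Gli3 MNP peaks and 4 Gli3 whole face peaks, of which 2 were shared. Of the MNP peaks, 1 lay 37.6 kb upstream (chr13:98316158-98317149), 353 bp from the TSS of *Btf3*, which encodes a general transcription and nascent-chain factor. The other 3 lay downstream of *Foxd1*, between genes, at 11.9 kb (chr13:98365778-98366461), 19.6 kb (chr13:98373721-98374010) and 37.1 kb (chr13:98391120-98391652). Only the peak at 19.6 kb shared bases with Hand2, and it lay within a Hand2 peak of 1588 bp, the widest of the 67. The peak with Hand2 had a GC content of 46.6%, and the 3 without Hand2 had 66.5, 65.1 and 66.6%. The other loci did not split this way. At *Foxf2* the MNP peak with Hand2 had 56.8% and the one without had 47.4%. None of the 8 Gli3 peaks near *Foxd1* held GACCACCC, which occurs 4 times in this locus, and GACCTCCC does not occur in its 205064 bases. All 8 hold the core CCTCC, a common match. It was in 90.3% of the Gli3 MNP peaks not near the forkhead genes and in 66.5% of such whole face peaks.

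In the whole face, the *Foxd1* peaks at 19.6 kb and 37.1 kb were present too. Whole face peaks at 39.2 kb (chr13:98393309-98393512) and 76.6 kb were not in the MNP list and lay inside Hand2 peaks. The *Foxd1* TSS had no peak of any list within 1 kb, and its closest Hand2 peak was 6.3 kb downstream (chr13:98360357-98360794). The study sought regulatory regions in peaks called from pooled replicates, a set not used here. It reported regions bound by Gli3 and Hand2 with dGBMs at *Foxd1*. Its reporter assays covered promoter-proximal regions and a region downstream of the gene. A peak missing here may thus be present in that set. The name of its downstream region, read as a distance in bp from the TSS, falls within the peak at 37.1 kb in both Gli3 lists. In the lists used here that MNP peak did not overlap Hand2, and the closest Hand2 peak was 1321 bp away. The reading of the name as a distance from this TSS was not tested.

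*Foxd2* held the cGBM in 2 of its 3 Gli3 MNP peaks. The closest peak lay 5.6 kb downstream of the TSS (chr4:114903034-114903414), in both Gli3 lists, 2651 bp from Hand2, with no E-box in its 381 bp. The farther peak lay 86.9 kb downstream (chr4:114821443-114822490, 1048 bp) and was in all 3 lists; it is 244 bp from the TSS of the predicted gene *Gm12830*, so *Foxd2* is not the closest gene to it. The remaining one (chr4:114987260-114987561) shared 231 bp with a Hand2 peak and lay 169 bp from the TSS of *Cmpk1*, a nucleotide kinase gene, on the other side of *Foxd2*. Whole face peaks at 65.3 and 67.5 kb downstream, without Hand2, and at 89.7 kb, inside a Hand2 peak, were not in the MNP list. Hand2 had a peak over the *Foxd2* TSS (chr4:114908803-114909314), and 5 of its 15 Hand2 peaks were closest to *Foxe3*, a forkhead gene of the lens.

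With the peak over the *Foxf1* TSS, that over the *Foxd2* TSS and a peak upstream of *Foxf2* (chr13:31624738-31625151), 3 of the 8 genes had Hand2 within 1 kb of the TSS, compared to 30.0% of protein-coding genes.

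Gli3 MNP peaks near the forkhead genes were shared with the whole face list in 9 of 13 cases (69.2%, 95% Wilson interval 42.4 to 87.3%), compared to 39.2% of all other Gli3 MNP peaks (interval 37.9 to 40.5%). These intervals cover counting error only. At least 1 such shared peak stood within 100 kb of 7 of the 8 genes, compared to 26.1% of protein-coding genes, and *Foxc1* was the exception. The 4 unshared MNP peaks were those at *Btf3* and *Cmpk1*, the *Foxd1* peak at 11.9 kb and the *Foxc1* peak. Seen from the whole face, 9 of 18 peaks were shared with the MNP (50%, interval 29.0 to 71.0%), compared to 37.5% of all other whole face peaks.

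Gli3 MNP peaks shared bases with Hand2 in 6 of 13 cases (46.2%, interval 23.2 to 70.9%), compared to 61.5% of all other Gli3 MNP peaks (interval 60.1 to 62.7%). The intervals overlap, and the order of the shares turned with the window: 3 of 10 peaks within 50 kb and 18 of 27 within 200 kb (66.7%) overlapped Hand2, compared to 61.5% and 61.4% of the peaks outside those windows. Gli3/Hand2 overlapping peaks lay within 100 kb of 6 of the 8 genes, compared to 41.6% of protein-coding genes, with *Foxf1* and *Foxc2* as the exceptions. Gli3-alone peaks lay within 100 kb of 7 of the 8, compared to 31.6% of protein-coding genes, with *Foxc1* as the exception. In the whole face, 10 of 18 peaks overlapped Hand2 (55.6%, interval 33.7 to 75.4%), compared to 47.5% of the others, and within 50 kb 5 of 11 did (45.5%), compared to 47.6%. Seen from Hand2, 10 of the 67 peaks near the forkhead genes overlapped Gli3 whole face peaks (14.9%, interval 8.31 to 25.3%), compared to 4.53% of all other Hand2 peaks, and 6 of 67 overlapped Gli3 MNP peaks (8.96%, interval 4.17 to 18.2%), compared to 5.89%.

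Each of the 4 loci held exactly 1 region present in all 3 lists: 1.6 kb upstream of *Foxf2*, 19.6 kb downstream of *Foxd1*, 86.9 kb downstream of *Foxd2* and 95.1 kb downstream of *Foxl1*. Such regions made up 4 of 13 Gli3 MNP peaks (30.8%, interval 12.7 to 57.6%), compared to 24.2% of all other Gli3 MNP peaks. Peaks in both Gli3 lists without Hand2 were 5 of 13 (38.5%, interval 17.7 to 64.5%), compared to 14.9% of the others (interval 14.0 to 15.9%). These 5 were the peaks at the *Foxl1* promoter, upstream of *Foxf1*, in the *Foxf2* intron, 37.1 kb from *Foxd1* and 5.6 kb from *Foxd2*.

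Where Gli3 peaks near the forkhead genes lacked Hand2, a Hand2 peak was not far. The 7 Gli3-alone MNP peaks lay 399 to 7824 bp from the closest Hand2 peak (median 2651 bp), and the 2084 other Gli3-alone peaks that share a chromosome with Hand2 peaks had a median of 12522.5 bp. For the 8 whole face peaks without Hand2 the distance was 398 to 3202 bp (median 1342 bp), compared to a median of 8311.5 bp for the others. Hand2 peaks were also more numerous near these genes, with a median of 14 per gene compared to 6 over all genes, and the part of that in these distances was not tested.

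Of the 13 Gli3 MNP peaks near the forkhead genes, 4 had their midpoint within 1 kb of any protein-coding TSS (30.8%, interval 12.7 to 57.6%), compared to 56.5% of the others (interval 55.2 to 57.8%), intervals that overlap. Their median GC content was 56.8%, compared to 62.2%. Median widths were 605 bp near the forkhead genes and 577 bp elsewhere.

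The cGBM was present in 4 of 13 Gli3 MNP peaks near the forkhead genes (30.8%, interval 12.7 to 57.6%), compared to 13.3% of all other Gli3 MNP peaks (interval 12.4 to 14.2%). In the whole face it was present in 4 of 18 peaks (22.2%, interval 9.0 to 45.2%), compared to 19.8% of the others. The exact dGBM GACCTCCC was in 0 of 13 and 0 of 18 peaks, which leaves upper bounds of 22.8 and 17.6%, above the 6.61 and 6.19% of all other peaks, so a lower share was not detectable with this number of peaks. The core CCTCC, searched after the data were seen, was in 11 of 13 Gli3 MNP peaks (84.6%, interval 57.8 to 95.7%), compared to 90.3% of the others, and in 11 of 18 whole face peaks (61.1%, interval 38.6 to 79.7%), compared to 66.5%. Around Gli3, CAGATG was in 2 of 13 MNP peaks (15.4%), compared to 27.3% of the others, with an interval of 4.33 to 42.2%. Hand2 peaks near the forkhead genes held CAGATG in 30 of 67 cases (44.8%, interval 33.5 to 56.6%), compared to 47.1% of all other Hand2 peaks.

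By locus, CAGATG was in 13 of 30 Hand2 peaks at *Foxf1*-*Foxc2*-*Foxl1*, 9 of 15 at *Foxd2*, 6 of 13 at *Foxd1* and 2 of 9 at *Foxq1*-*Foxf2*-*Foxc1*. The *Foxf2* peaks of Hand2, which include the region of all 3 lists printed above, are among those without it.

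A forkhead motif, TGTTTAC, searched on both strands because these genes encode forkhead proteins, stood in 4 of the 18 Gli3 whole face peaks (22.2%, interval 9.0 to 45.2%), compared to 3.54% of all other whole face peaks (interval 3.09 to 4.05%). Each locus contributed 1 of the 4. All 4 were whole face peaks without a Gli3 MNP counterpart, of which there were 9 (44.4%, interval 18.9 to 73.3%), compared to 3.49% of all other whole face peaks without a counterpart. The split by Gli3 MNP counterpart thus rests on the same 4 peaks. In Gli3 MNP peaks the motif was in 0 of 13, compared to 6.35% of the others. In Hand2 peaks it was in 11 of 67 (16.4%, interval 9.42 to 27.1%), compared to 9.32%. The whole face sites near *Foxf2*, *Foxd1* and *Foxd2* also lay in Hand2 peaks. A comparison among only the whole face peaks with Hand2 was not made. Within the 4 loci TGTTTAC occurs 156 times. Sites under Gli3 at 3 of the loci are shown with 20 bases on either side, on the strand of the motif, which is in capitals.

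*Foxf2*, 6.7 kb downstream of the TSS, also under Hand2 (chr13:31632520-31632566, plus strand): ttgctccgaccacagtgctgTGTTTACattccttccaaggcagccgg

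*Foxd2*, 89.8 kb downstream, also under Hand2 (chr4:114819069-114819115, minus strand): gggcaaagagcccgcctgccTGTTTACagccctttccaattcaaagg

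*Foxf1*, 10.9 kb upstream, without Hand2 (chr8:121073464-121073510, minus strand): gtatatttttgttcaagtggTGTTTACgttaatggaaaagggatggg

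**Figure D3:**
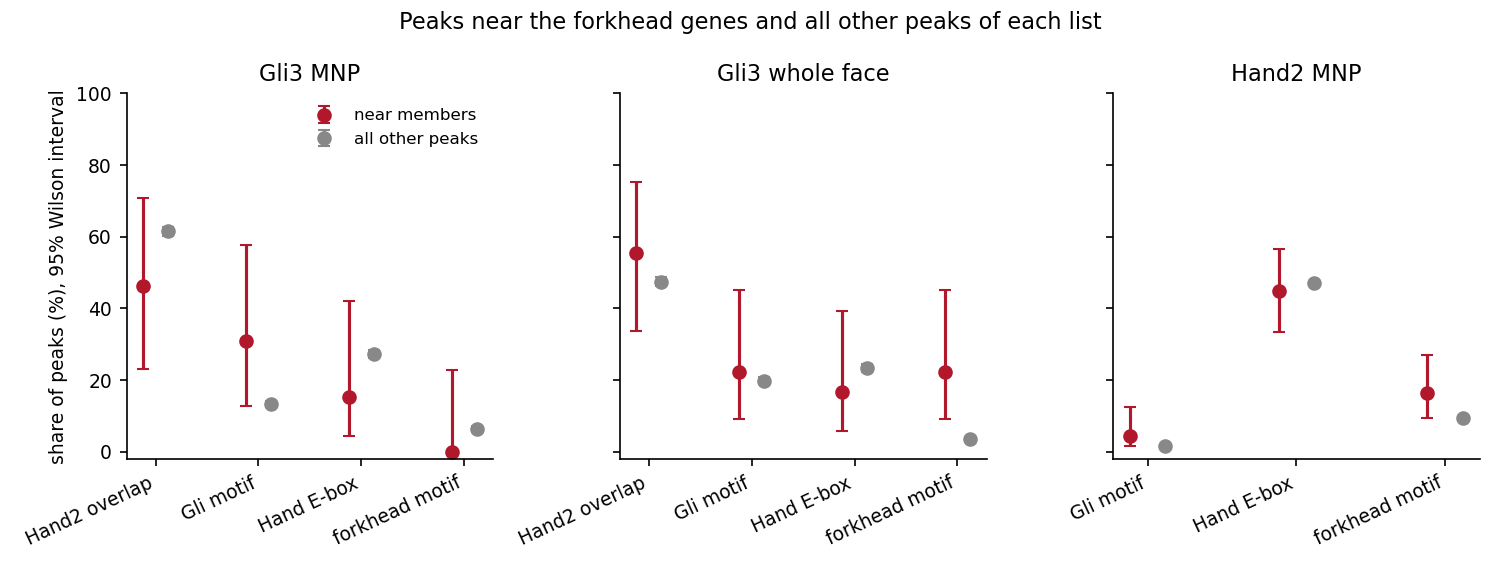
Shares of peaks near the forkhead genes (red) and of all other peaks of the same list (grey) that overlap Hand2 or hold GACCACCC (Gli motif), CAGATG (Hand E-box) or TGTTTAC (forkhead motif). The y axis is the percent of peaks; points are shares and bars are 95% Wilson intervals, for 13, 18 and 67 peaks near the genes. The forkhead motif in whole face peaks, at 22.2% compared to 3.54%, is the share whose red interval lies farthest from the grey point.

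Names of the whole face peaks carry a number for each replicate and control. Each peak was called in 2 replicates, against a mock ChIP of wild-type embryos and against input, and each of these calls gives the peak a number. What the number stands for is not stated in the sources used here. Across the 5752 whole face peaks it had a Spearman correlation of 0.790 between replicates called against the mock ChIP and 0.785 against input. Of the names, 5617 hold 4 entries, of both replicates against both controls. The list keeps peaks shared by both replicates, so their agreement was a condition of the list. Peaks with low numbers held GACCACCC more often: it was in 31.8% of the 576 peaks with the lowest mean number (interval 28.1 to 35.7%), in 23.1% of the next 576, and in 15.3 to 21.2% of each 575 after those. Overlap with Hand2 was 61.8% in the 576 lowest and 34.6% in the 575 highest. The numbers are given here as an order only.

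The lowest mean number of all 5752 peaks belonged to the *Foxd2* peak 86.9 kb downstream of the TSS (chr4:114821844-114822045), the one with a cGBM, which had 1 and 2 in replicates 1 and 2 against the mock ChIP and 1 and 2 against input. The *Foxf1* peak 3.6 kb upstream, also with a cGBM, had 115 and 105 against the mock ChIP and was in place 100. The *Foxf2* peak 1.8 kb upstream had 123 and 272 (place 176), and the *Foxl1* promoter peak 179 and 543 (place 320). These 4 peaks were the only ones of the 18 among the 576 lowest, and 2 of them held no cGBM.

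Replicates differed by more than a factor of 3 for some peaks, such as the *Foxd1* peak at 37.1 kb with 428 and 1378 against the mock ChIP (place 602), although its numbers against input were 452 and 508. The remaining cGBM peaks stood at place 1316 for *Foxd2* at 5.6 kb, with 1109 and 1138, and at place 1569 for the region 95.1 kb from *Foxl1*, with 1452 and 2191. The *Foxc1* peak was at place 4063, and the highest place, 5394, was that of the *Foxd2* peak at 89.7 kb. Over the 18 peaks the median place was 1605.5, compared to 2876.5 for the whole list.

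**Figure D4:**
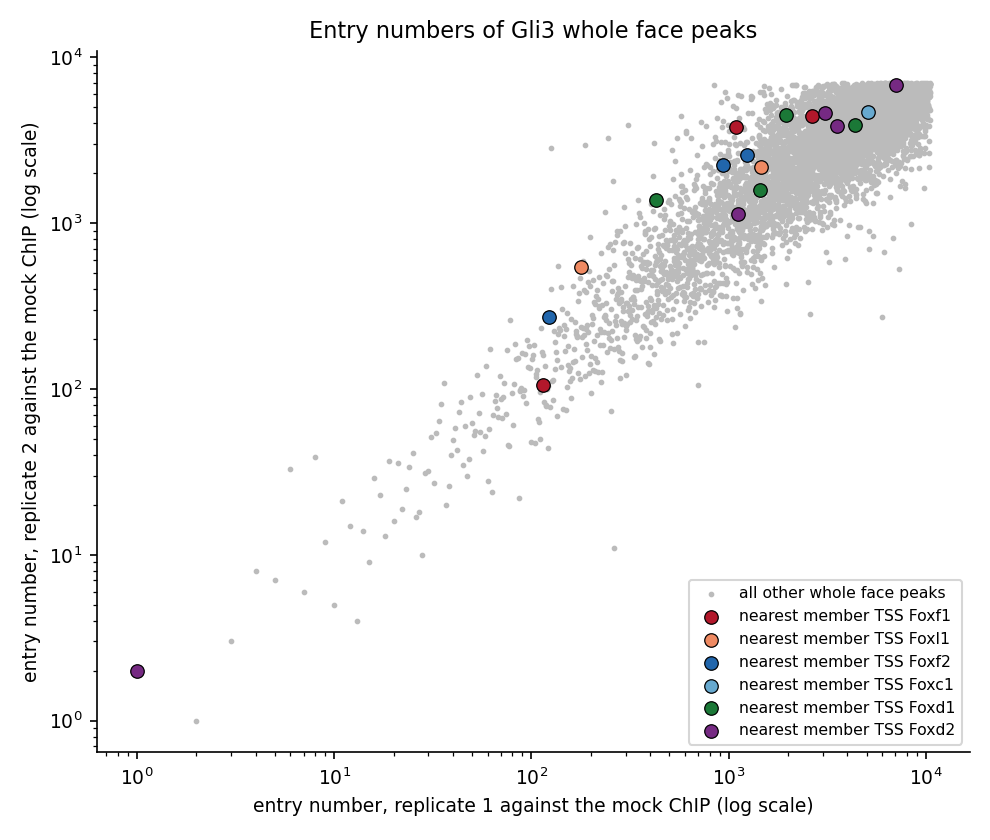
Numbers in the names of the 5752 Gli3 whole face peaks, replicate 1 (x axis, log scale) against replicate 2 (y axis, log scale), both called against the mock ChIP. Grey points are all other peaks and coloured points the 18 peaks near the forkhead genes, by the gene whose TSS is nearest. The *Foxd2* peak at 1 and 2 stands at the lower left end, and peaks nearest to *Foxf1*, *Foxf2* and *Foxl1* follow between 105 and 543.

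Names of the MNP peaks show how many peaks of each replicate were merged. Each of the 13 Gli3 peaks and 67 Hand2 peaks near the forkhead genes joined at least 1 peak of each replicate. Several peaks of replicate 1 were joined in 4 of the 13 Gli3 peaks (30.8%), compared to 47.1% of all other Gli3 MNP peaks, and several of replicate 2 in 3 of them (23.1%), compared to 18.1%, and the peak at *Btf3*, with 3 and 2, had the most.

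Compared to the 36 other forkhead genes of the annotation, the 8 genes had more Gli3 peaks near them. A Gli3 MNP peak stood within 100 kb of 20 of the 36 (55.6%), a whole face peak near 28 (77.8%) and a Hand2 peak near all 36. Their medians were 1 Gli3 MNP, 1 Gli3 whole face and 5.5 Hand2 peaks, and those of the 8 genes were 2, 4 and 14. The 8 genes lie in 4 loci and share peaks within a locus, so their medians count some peaks several times. At most 3 Gli3 MNP peaks lay near another forkhead gene, a number reached by *Foxp1*, *Foxp4* and *Foxs1*; *Foxp1* and *Foxp4*, which act in lung, heart and neurons, have gene bodies of 597384 and 57513 bp and thus longer windows. The counts over the 3 lists most like those of *Foxf1* and *Foxc2* were those of *Foxn3* (2, 3 and 25), with a summed difference of 0.38 on the scale of log2(peaks + 1), and for *Foxl1* and *Foxd2* those of *Foxp4* (3, 6 and 24; differences of 0.39 and 0.87). *Foxb1* (2, 4 and 6) was closest to *Foxq1* and *Foxf2*, *Foxe3* (2, 3 and 13), which shares peaks with *Foxd2*, to *Foxd1*, and *Foxd3* and *Foxk2* had the counts of *Foxc1* (1, 1 and 4).

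Among 31 genes of the Hedgehog pathway and its known targets, 22 had a Gli3 MNP peak within 100 kb (71.0%), 25 a whole face peak (80.6%) and 30 a Hand2 peak (96.8%), with medians of 1, 2 and 13 peaks. The receptor gene *Ptch1* had 9 Gli3 MNP peaks, the pathway inhibitor *Sufu* 6 and the growth regulator *Mycn* 4, the count of *Foxd1*, and *Bcl2*, *Ccnd1*, *Gli1*, *Kif7* and *Smo* had 3, the count of *Foxl1* and *Foxd2*. At the promoter, 1 of the 8 forkhead genes had a Gli3 MNP peak within 1 kb of the TSS and 3 had a Hand2 peak, compared to 11 (35.5%) and 23 (74.2%) of the 31 pathway genes, a difference that was not tested. Hand2 overlapped 1 of the 4 Gli3 MNP peaks near *Foxd1*, compared to 8 of 9 near *Ptch1*.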

How the data were processed

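ChIP-seq libraries were sequenced by the authors as single reads of 75 bp. The submitters' processing notes name BWA, bedtools, HOMER and the build mm10 (GRCm38), without versions. The deposited files are 3 lists of peak positions, 1 per group, in which both replicates are merged; they hold no counts, signal or score, so depth and strength of a peak are unknown. Names in the MNP lists give the merged peaks of each replicate. Names in the whole face list give a number per replicate and control, and the lowest was used where a name held several.

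Positions were joined to the protein-coding genes of GENCODE vM21 on mm10. A peak was near a gene where its midpoint lay within 100 kb of the gene body, and lists overlapped by at least 1 bp. Motifs were searched in the peaks on both strands. "Intergenic" means in no annotated gene, with the readthrough gene *Gm20388* left out. Other forkhead genes were all symbols starting with Fox except *Foxred1* and *Foxred2*, which are no forkhead genes. Scripts ran in Python 3.11.15 with numpy 2.4.6, scipy 1.17.1 and matplotlib 3.10.9. On simulated data 400 of 400 motif counts and 400 of 400 overlaps were right.

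No test was run, since the lists hold no replicates apart. Shares are given with 95% Wilson intervals. The 8 genes and the gene lists were chosen with earlier results of these data known. Besides the 8 genes, the text names genes closest to a peak within the windows, other forkhead genes with the most Gli3 MNP peaks or the most similar counts, and the Hedgehog genes with the most Gli3 MNP peaks. Alternatives were windows of 50 and 200 kb or around the TSS, assignment to the closest TSS, wider peaks, other overlaps, promoters and motifs, and counts per 100 kb of window. The ranking among genes under 10 kb and the searches with 1 mismatch and for CCTCC were added after the data were seen. A few items are not reported here.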

Additional observations from a re-analysis of the deposited data

How the results depend on the processing

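The number of peaks near the 8 forkhead genes followed the window. Within 200 kb there were 27 Gli3 MNP peaks (18 with Hand2), 39 whole face peaks (24 with Hand2) and 123 Hand2 peaks. Within 50 kb, 3 Gli3 MNP peaks and 5 of 11 whole face peaks were with Hand2, and 40 Hand2 peaks remained in the window. When peaks narrower than their list's median width were left out, 7 Gli3 MNP, 6 whole face and 34 Hand2 peaks lay near the genes. With promoters of 5 kb, 3 genes had a Gli3 MNP, 3 a whole face and 5 a Hand2 peak there, and 0 had a whole face peak that covers the TSS. With at most 1 mismatch, 10 Gli3 MNP and 12 whole face peaks held GACCACCC. In place of GACCTCCC, 4 Gli3 MNP peaks held GACCNCCC, which includes GACCACCC. The core CCTCC was in 11 Gli3 MNP peaks. CAGATG was in the middle 200 bp of 13 Hand2 peaks, and CANNTG was in 64. By peaks per 100 kb of window 3 of the genes, and within 200 kb 5, were in the top 10% by Gli3 MNP peaks, compared to 1 by number. The other 34 values stayed within the range set for no change. No paired analysis was possible because each list merges its replicates and no result comes from a test, and leaving out a replicate was not run for the same reason. With 13 and 18 Gli3 peaks in 4 loci, shares carry wide intervals.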
